A study of Mus musculus with 6 samples.

Results

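Adenylate kinases are the enzymes that pass a phosphate between adenine nucleotides, and 6 of their genes (Ak1, Ak3, Ak4, Ak5, Ak7 and Ak8) were followed here in mouse leukaemia cells treated with UNC0638 or with DMSO. The members were the genes of that family whose probe annotation gave exactly 1 gene symbol. They were read by 7 of the 34760 rows of the deposited table and made up 6 of the 19937 genes measured by such rows, and the row with the highest mean over the 6 arrays stood for a gene. Ak4 had 2 rows and each other member 1. The family was picked because of the difference of Ak4 between UNC0638 and DMSO, so the members' differences in that comparison are given as a description that supports nothing, also where a call of the fit over all genes is stated. The row that carries Ak6 also carries the symbol Taf9 and was left out by that choice. It read 643, 599.6 and 586 in DMSO and 508, 467 and 495 in UNC0638, with every UNC0638 array below every DMSO array, and cannot be assigned to either gene.

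The cells were mouse haematopoietic stem and progenitor cells transformed by HoxA9 and Meis1 (A9M cells), a model of acute myeloid leukaemia, and both groups carried these genes. They were cultured in DMEM with serum, IL3, IL6 and SCF. The control group received the solvent DMSO and the other group UNC0638, an inhibitor of the histone methyltransferases G9a and GLP, each for 5 days and each measured on 3 Affymetrix arrays. The study asked which transcripts depend on the methyltransferase activity of G9a. The labels do not say at which concentration UNC0638 was given, nor whether the numbered samples were separate cultures, so an SE or p-value covers only how far these samples spread, a spread that may be technical.

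Adenylate kinases convert a pair of ADP molecules into ATP and AMP and the reverse, so that a small fall in ATP becomes a larger rise in AMP, which the kinase AMPK senses. The members sit in different places in the cell. Ak1 encodes the main cytosolic enzyme, abundant in muscle and brain, and Ak5 a cytosolic enzyme known from brain. Ak3 and Ak4 encode enzymes of the mitochondrial matrix, of which the first uses GTP to phosphorylate AMP. Ak4 is a known target of the hypoxia-inducible factors (HIF), the transcription factors of the response to low oxygen. Ak7 and Ak8 are known from motile cilia and sperm flagella.

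The sequence upstream of Ak4 is shown beside that of Ak3, its relative in the matrix, because Ak4 is the member that differed and because HIF binds DNA at short cores. The cores searched were ACGTG and GCGTG, on both strands, and they are in capitals below. Sequences are from RefSeq on GRCm38.p6 and cover the 250 bases before a transcript's start, read 5′ to 3′ along the gene's own strand. The promoter table matched 5 of the 6 members, and Ak5 was the member without an entry.
Ak4, chr4:101419039-101419288, plus strand: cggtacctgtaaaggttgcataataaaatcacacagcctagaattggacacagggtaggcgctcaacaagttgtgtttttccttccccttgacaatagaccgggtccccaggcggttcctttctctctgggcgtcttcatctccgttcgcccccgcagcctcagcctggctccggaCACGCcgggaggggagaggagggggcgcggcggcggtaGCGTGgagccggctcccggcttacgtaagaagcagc
Ak3, chr19:29047962-29048211, minus strand: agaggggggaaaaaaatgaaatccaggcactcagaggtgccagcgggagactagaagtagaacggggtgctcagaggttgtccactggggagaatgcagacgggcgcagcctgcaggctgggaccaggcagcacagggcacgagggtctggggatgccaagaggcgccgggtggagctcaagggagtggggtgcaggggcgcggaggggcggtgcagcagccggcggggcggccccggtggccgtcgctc
Ak4, stretch around a core before its most downstream start, chr4:101419480-101419504, plus strand: cactctgcccACGTGcggggaccgg

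The Ak4 stretch shown first held GCGTG at 2 places, 1 on each strand, and that of Ak3 held neither core. The stretch of 25 bases lies before the last of the 4 starts listed for Ak4 and reads CACGTG at its centre, so that ACGTG matches on both strands there, the matches overlapping. In windows of 300 bases (250 before to 50 after a start), at least 1 core was found for all 4 starts of Ak4, for 3 of the 4 starts of Ak1 and for Ak7, and neither core for Ak3 and Ak8. The Ak4 windows that begin at 101419039, 101419062 and 101419071 overlap and hold the same GCGTG matches, so they are not separate finds. Of all 32851 such windows in the table, 19.62% held ACGTG, 32.39% held GCGTG and 43.77% held either. By gene, 46.73% of 27025 had a window with either. A match is a run of letters and not a measured binding site.

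Ak4 was lower on every UNC0638 array than on any DMSO array. Its main row (probe set 10472923) had intensities of 760, 663 and 571 in DMSO and of 337, 243 and 295 in UNC0638. The lowest DMSO array was thus 1.69 times the highest UNC0638 array. The group means were 665 ± 94.9 and 292 ± 47.0 (SD, n = 3 each), so that UNC0638 cells held 43.9% of the DMSO intensity. On the scale of log2(intensity + 16) the difference was -1.15 (SE 0.14), and 14 of the 19937 genes had a more negative one. Over all genes the median difference was 0.012, with 5% of genes below -0.29 and 5% above 0.28.

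The other Ak4 row (probe set 10506269) showed the same order of the groups with a smaller gap. It read 350, 319 and 255 in DMSO and 171, 198 and 193 in UNC0638. Its means were 308 ± 48.6 and 187 ± 14.7 (SD, n = 3 each), a log2 difference of -0.66 (SE 0.12). DMSO replicate 1 was the highest and DMSO replicate 3 the lowest of the controls on both rows, whereas UNC0638 replicate 1 was the highest of its group on the main row and the lowest on the other. The rows therefore gave the same direction and differed in size, and the mean of both lay at -0.91. The annotation does not say which part of the transcript, or which copy of its sequence, each row reads. The probe set number of the other row lies between those of Raver2 (10506254) and Dnajc6 (10506274), genes near Ak4 on its chromosome. That of the main row (10472923) does not, nor does that of Jak1 (10514668), also a neighbour. The main row's number lies nearer to those of Ak8 (10470614) and Ak1 (10471474). Both of these members are on chromosome 2, whereas Ak4 is on chromosome 4. Whether the main row reads Ak4 at that place was not tested.

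**Figure D1:**
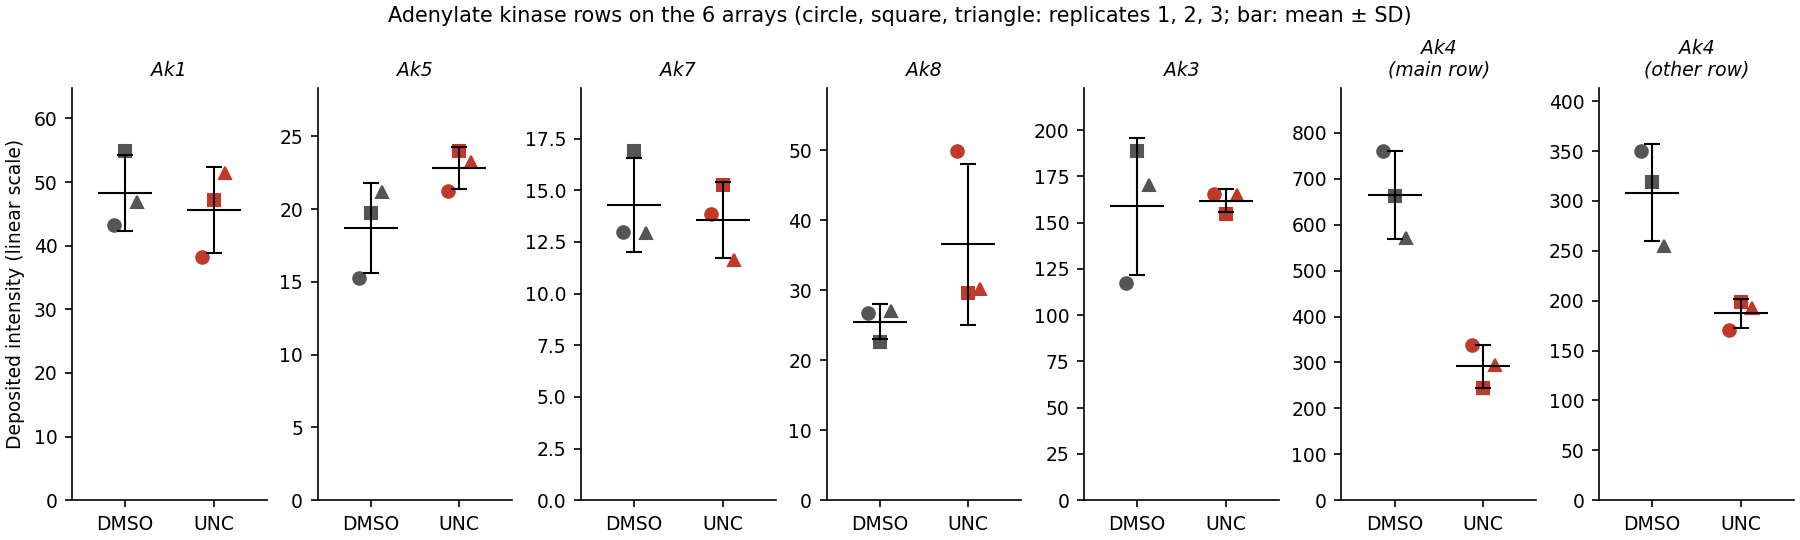
Deposited intensity (linear axis from 0, a scale of its own in each panel) of the 7 adenylate kinase rows on the 3 DMSO arrays (grey) and 3 UNC0638 arrays (red, UNC). Symbols mark the replicate number and black bars the mean ± SD; in both Ak4 panels all red points lie below all grey ones, from 243 to 337 against 571 to 760 on the main row, while the Ak1, Ak3 and Ak7 points overlap.

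In Ak3, the other enzyme of the matrix, the groups had nearly equal means. Its intensity was 117, 189 and 170 in DMSO and 166, 155 and 165 in UNC0638, and the groups overlapped. The means were 159 ± 37.1 and 162 ± 6.22 (SD, n = 3 each), with a log2 difference of 0.047 (SE 0.15). The spread within DMSO came mostly from replicate 1, and without that array the difference was -0.14. A small difference in either direction could not be resolved at that spread.

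The cytosolic enzymes showed small differences. Ak1 read 43.2, 54.9 and 46.9 in DMSO and 38.2, 47.2 and 51.4 in UNC0638, which overlapped (log2 difference -0.065, SE 0.11). Its sign turned without DMSO replicate 2 (0.0073) and without UNC0638 replicate 1 (0.025). Ak5 read 15.2, 19.7 and 21.2 in DMSO and 21.2, 24.0 and 23.3 in UNC0638. Its groups did not overlap, but the highest DMSO and the lowest UNC0638 array were nearly equal, and the log2 difference was 0.17 (SE 0.090), or 0.091 without DMSO replicate 1. The arrays' lower quartiles were 20.9 to 22.8, so Ak5 was dim. The pseudocount of 16 shrinks the difference of so dim a gene, and with a pseudocount of 1 it was 0.28, with one of 64 0.071.

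Of the enzymes of cilia, Ak7 lay below the lower quartile of every array, and Ak8 above it and below the median. Ak7 read 13.0, 16.9 and 12.9 in DMSO and 13.8, 15.3 and 11.6 in UNC0638, which overlapped (log2 difference -0.033, SE 0.090, with 0.028 without DMSO replicate 2 and 0.016 without UNC0638 replicate 3). Ak8 read 26.8, 22.6 and 27.1 in DMSO and 49.9, 29.6 and 30.3 in UNC0638. Its groups did not overlap, and UNC0638 replicate 1 stood far above the other arrays of its group. The log2 difference was 0.32 (SE 0.14) and 0.15 without that array, and 0.16 with a pseudocount of 64. At such intensities a gene that is not expressed cannot be told apart from one expressed at a low level.

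Across the 6 members, the main rows of 3 lay below 0 and of 3 above, with a median log2 difference of 0.0072. In the limma fit over all genes (adjusted p under 0.05), 1 of the 6 members was called, Ak4, where 0.672% of all 19937 genes were called. That fit called 134 genes, 74 higher and 60 lower, or 50 higher and 65 lower with each array centred on its median. The groups did not overlap for 3 of the 6 members (Ak4, Ak5 and Ak8) and for 17% of all genes. Since the family was picked on this comparison, nothing is read from these counts. With 1 array left out, Ak4 was no longer called without DMSO replicate 2 (log2 difference -1.14), UNC0638 replicate 1 (-1.25), UNC0638 replicate 2 (-1.03) or UNC0638 replicate 3 (-1.16). It was not called with a pseudocount of 64 (-1.04) or from its other row either.

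**Figure D2:**
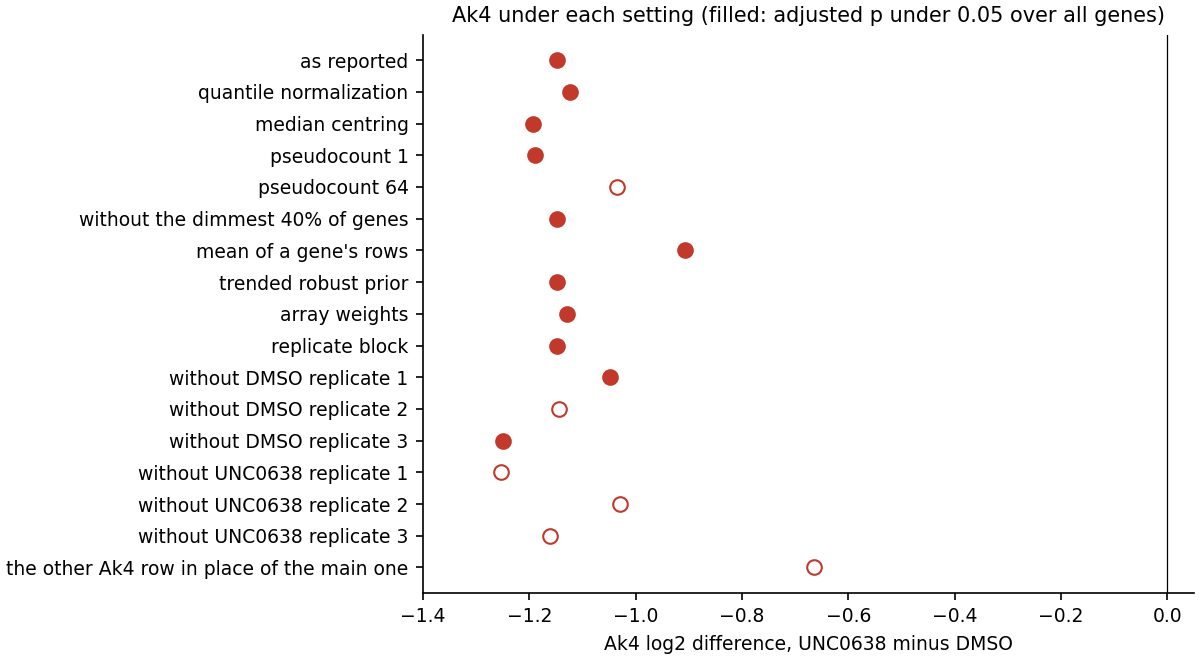
Log2 difference of Ak4, UNC0638 minus DMSO (horizontal axis), under the reported setting and 16 alternatives (vertical axis); a filled point was called in the limma fit over all genes and an open one was not. The points run from -1.25 to -0.66, all below 0, and the other Ak4 row lies closest to 0.

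In the rest of adenine nucleotide metabolism no gene passed the test, a share near the 0.672% over all genes. The list covered purine salvage and AMP synthesis, AMP deaminases, nucleotidases, the ADP/ATP carriers of mitochondria, creatine kinases and the AMPK subunits with their upstream kinases. Of its 46 measured genes 0 rose and 0 fell by limma over all genes. An unadjusted limma p under 0.05 was found for 12 of the 46, a larger share than the 12.7% of all genes. The median log2 difference was -0.018, against 0.012 over all genes. Entpd1, the cell surface enzyme CD39 that breaks down extracellular ATP and ADP, had the difference farthest from 0. It read 300.03, 174 and 221 in DMSO and 327, 309 and 397 in UNC0638 (log2 difference 0.57, SE 0.18, limma adjusted p = 0.222). Its groups did not overlap, but the gap from 300.03 to 309 was small beside the spread within DMSO.

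Kinases of other nucleosides and of their mono- and diphosphates gave a like count, also near the 0.672% over all genes. Listed with them were Suclg1, Suclg2, Sucla2 and Pck2. Of 22 measured genes 0 rose and 0 fell by limma. Of these 22, 6 had an unadjusted limma p under 0.05, a larger share than the 12.7% of all genes. The differences of 18 were below 0, with a median of -0.11. Below 0 lay 46.1% of all genes. Tk1, the thymidine kinase of dividing cells, was farthest from 0 over the 6 arrays, with Guk1, the guanylate kinase, nearly level (-0.38). Guk1 was chosen for naming after its value was seen. Tk1 read 351, 476 and 337 in DMSO and 277, 339 and 260.3 in UNC0638, which overlapped (log2 difference -0.38, SE 0.15, limma adjusted p = 0.318, and -0.23 without DMSO replicate 2).

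Genes of the HIF response and glycolysis, the program to which Ak4 is known to belong, were lower in part. Of 44 measured genes 6 fell and 0 rose by limma, where 0.301% of all genes were called lower and 0.371% higher. Of their differences 34 were below 0, with a median of -0.18. The list was written with earlier results of these data known, so its counts are a description only. Plod2, a lysyl hydroxylase of collagen, went from 92.6, 100.1 and 81.8 in DMSO to 33.9, 31.6 and 46.6 in UNC0638 (log2 difference -1.02, SE 0.12, limma adjusted p = 0.0128). Bnip3, a mitophagy receptor, went from 1861, 1145 and 1295 to 544, 564 and 760.04 (log2 difference -1.17, SE 0.19, limma adjusted p = 0.0399). In both genes every UNC0638 array lay below every DMSO array, as in Ak4.

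The other HIF and glycolysis genes that fell did so by less. They were Higd1a (-0.61), a mitochondrial protein of the hypoxia response, Egln1 (-0.51), the prolyl hydroxylase that marks HIF for degradation, Ero1a (-0.55), which helps form disulphide bonds in secreted proteins, and Pfkl (-0.55), a phosphofructokinase of glycolysis. Their limma adjusted p ran from 0.0285 to 0.0488. Higd1a was at -0.34 with the mean of its rows. Over 15 alternatives the call was kept in 11 for Plod2, 7 each for Bnip3, Egln1 and Ero1a, 5 for Pfkl and 3 for Higd1a. The 38 genes that did not pass ran from -0.81 for Pdk1, which restrains pyruvate oxidation, to 0.28 for Bhlhe40, a transcriptional repressor, with Hif1a itself at -0.0024. These 3 were chosen for naming after their values were seen. The groups did not overlap for 22 of the 44 genes, against 17% of all genes. The count of 6 was 1 without DMSO replicate 1, DMSO replicate 3 or UNC0638 replicate 3, and 0 without DMSO replicate 2, UNC0638 replicate 1 or UNC0638 replicate 2. It was 2 with a pseudocount of 1 or 64. Plod2 was at -0.62 with a pseudocount of 64 and was then not called.

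**Figure D3:**
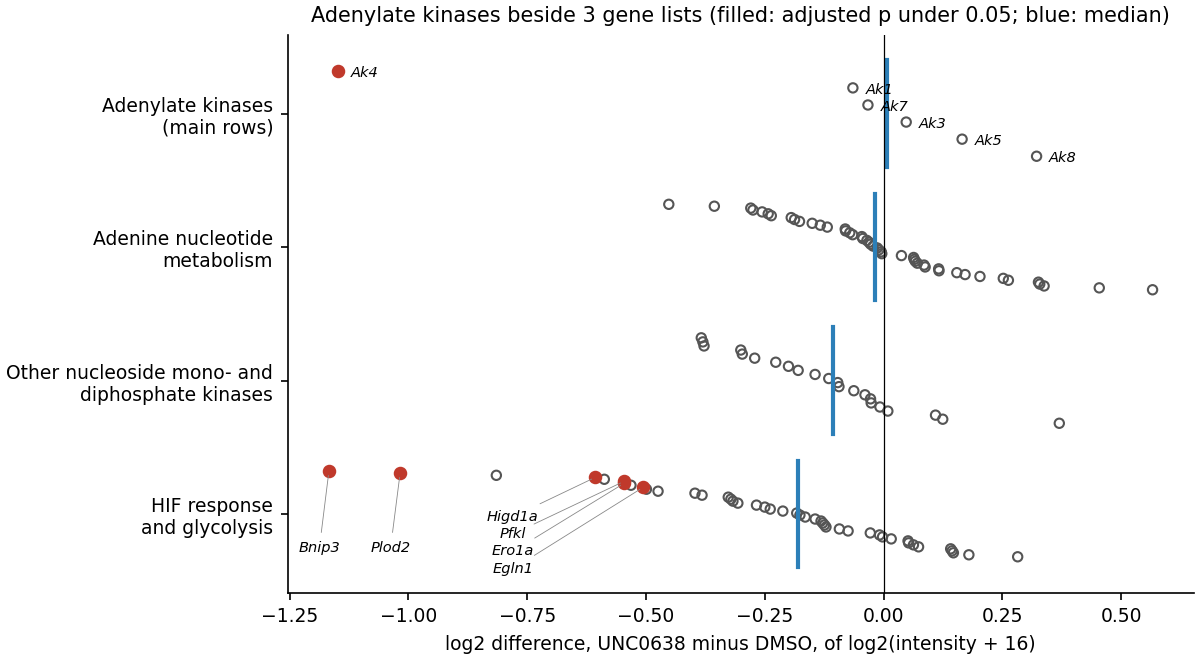
Log2 difference, UNC0638 minus DMSO (horizontal axis), of each gene in 4 sets (rows): the 6 adenylate kinases, 46 genes of adenine nucleotide metabolism, 22 genes of the list of other nucleoside and nucleotide kinases and 44 HIF and glycolysis genes. Filled points passed the limma test over all genes and blue bars are medians. Ak4, from its main row, lies at -1.15 and the other 5 adenylate kinases between -0.065 and 0.32. Bnip3 and Plod2 lie farthest below 0 of the HIF and glycolysis genes, whose median is -0.18. The other Ak4 row, at -0.66, is not drawn.

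The genes next to Ak4 on its chromosome were set beside it (log2 difference -1.15 on its main row and -0.66 on its other row). In the order of the GRCm38.p6 gene table these were Cachd1, Raver2 and Jak1 on one side and Dnajc6, Leprot and Lepr on the other, with 0 of these 6 called by limma, where 0.672% of all genes were called, so nothing particular to them is read from it. Jak1, a kinase of cytokine receptors, read 1761, 1654 and 1699.5 in DMSO and 1669.99, 1823 and 2074 in UNC0638 (log2 difference 0.12, SE 0.095, with 0.19 without UNC0638 replicate 1 and 0.033 without UNC0638 replicate 3). Dnajc6, a co-chaperone of clathrin uncoating, lay at 0.041 (SE 0.086). Leprot, a regulator of receptor traffic, had the largest difference of the 6, 0.44 (SE 0.20, adjusted p = 0.431 by limma), with overlapping groups, and lay at 0.22 without DMSO replicate 2. Cachd1, Raver2 and Lepr, at mean intensities of 18.0 to 32.7 in DMSO, lay between 0.0037 and 0.13. The differences of Cachd1 and Dnajc6 changed sign with each array centred on its median (-0.042 and -0.0052).

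**Figure D4:**
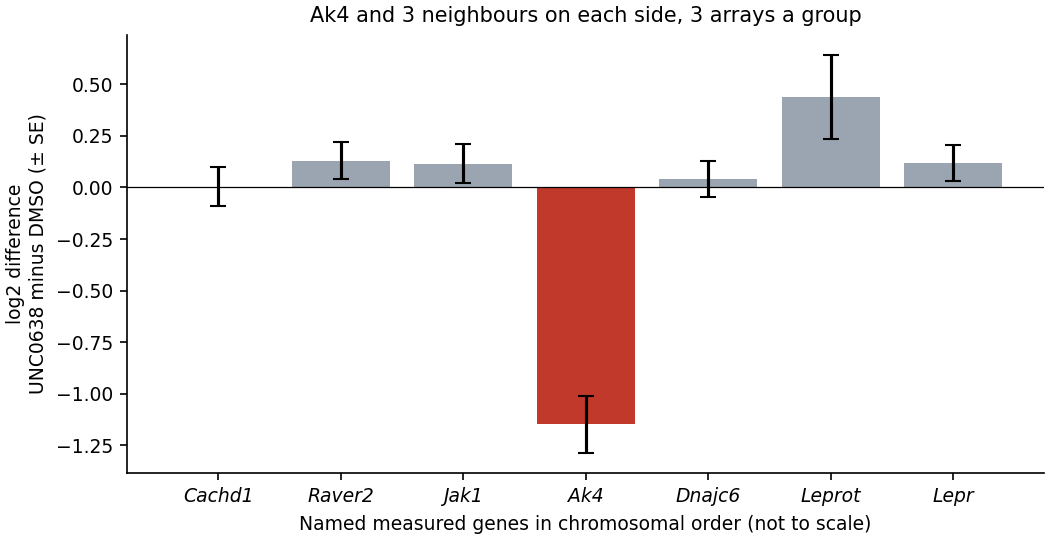
Log2 difference, UNC0638 minus DMSO (bars from 0, with SE, 3 arrays a group), of Ak4 and of the 3 nearest named measured genes on each side in chromosomal order. The Ak4 bar, from its main row, reaches -1.15, and the 6 neighbours lie between 0.0037 and 0.44. The other Ak4 row, at -0.66, is not drawn.

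The pattern of Ak4 over the 6 arrays was most like that of Tubb6, a beta-tubulin (Pearson r = 0.992 with log2 intensity). Next came Txnl4a, a spliceosome component (0.990), Smim26 (0.990), Timm9, a chaperone of mitochondrial protein import (0.990), Aimp1, a scaffold of aminoacyl-tRNA synthetases (0.989), and Btg1, an antiproliferative gene (0.988). These are the highest of 10681 genes at or above the median intensity in DMSO, and 103 of them reached 0.95 or more. The 6 arrays share a group difference, which such a correlation contains, so it is a description only. The log2 differences of the 6 between the groups, which that choice fixed in direction, were -0.57 for Tubb6, -0.29 for Txnl4a, -0.68 for Smim26, -0.54 for Timm9, -0.35 for Aimp1 and -0.22 for Btg1. Within the family, r with Ak4 over the 6 arrays was -0.853 for Ak5, -0.511 for Ak8, -0.226 for Ak3, 0.112 for Ak1 and 0.135 for Ak7. With each group's mean taken off it was -0.847, 0.577, -0.373, -0.483 and -0.201 in that order, so the sign turned for Ak8, Ak1 and Ak7.

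Intensities were spread alike on the 6 arrays. Median intensities were 50.4 to 54.9, and Pearson correlations of log2 intensity over all rows were 0.985 to 0.987 among DMSO arrays, 0.985 to 0.986 among UNC0638 arrays and 0.980 to 0.987 across the groups. All 10 markers of haematopoietic progenitor and myeloid cells lay above the upper quartile of all rows, among them Mpo, Elane, Kit and Cd34. Of the other types' markers, 0 of 4 for T cells, 0 of 2 for B cells, 0 of 1 for erythroid cells and 0 of 4 for ciliated cells lay above the median row, against 3 of 3 for stroma, 2 of 3 for epithelium, 1 of 4 for brain and muscle and 2 of 2 for megakaryocytes. Of all markers 0 passed the limma test, where 0.672% of all genes did. Itgam was farthest from 0 of the 10 haematopoietic and myeloid markers (log2 difference 0.46, limma adjusted p = 0.0709). Its UNC0638 arrays all lay above its DMSO arrays, and it was named after its value was seen. Of these 10 markers, Elane alone lay below 0 (-0.045). Summed intensities did not overlap between DMSO and UNC0638 for the haematopoietic and myeloid markers (18656 to 19940 and 20241 to 21534), the T cell markers (143 to 150.5 and 155 to 184) and the B cell markers (26.6 to 28.3 and 33.2 to 40.05). Those of megakaryocyte markers were 680.1 to 958 and 496 to 691, where Pf4 went from 679 ± 137 to 427 ± 103 and Itga2b from 127 ± 19.2 to 148 ± 9.64 (SD, n = 3 each). The part of these markers in the Ak4 difference was not tested. Ehmt2, which encodes G9a, was at 123 ± 13.0 and 101 ± 2.40, and Ehmt1, which encodes GLP, at 174 ± 12.2 and 169 ± 12.2 (SD, n = 3 each), and neither passed. In bulk RNA, fewer cells with a transcript and less transcript per cell cannot be told apart.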

How the data were processed

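Total RNA of 6 samples, 3 given DMSO and 3 given UNC0638, was extracted with Trizol and labelled as biotinylated cRNA for Affymetrix arrays, per the labels' protocols. The authors deposited 1 intensity per probe set and array, on a linear scale; how they summarised and normalized it is not given in the sources used here. Such steps can shrink differences of dim genes. Of 34760 rows, 21640 carry 1 gene symbol, 1321 several and 11799 none, and the row with the highest mean stood for each of 19937 genes (954 had several rows). Values were taken as log2(intensity + 16), which understates the change of dim genes, and the groups were compared with limma 3.58.1 (in R 4.3.3; lmFit, eBayes, group as the only term, 6 arrays). P-values were adjusted by Benjamini and Hochberg's method over the 19937 genes, and 0.05 was the threshold. Simulated data with independent errors and planted changes were used to check the code of the fit. They do not bear on the calls reported here. The members and lists were chosen with earlier results of these data known. Genes were named by rule: all members, Ehmt1, Ehmt2, up to 6 genes past the threshold in each list (or the one farthest from 0), the 6 most like Ak4, and the 3 neighbours on each side; names added after values were seen are marked as such. Means are over 3 arrays, whose number limits the precision. The main fit had no replicate term because the labels do not say what same-numbered arrays share. The deviations of same-numbered arrays from the group means correlated at -0.066, 0.11 and 0.017. Alternatives were 2 other scalings, pseudocounts of 1 and 64, a filter on the dimmest 40% of genes, the mean of a gene's rows, a trended robust prior, array weights, the replicate number as a block and each array left out; the use of Ak4's other row was chosen after seeing the data. Plots were made in matplotlib 3.10.9.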

Additional observations from a re-analysis of the deposited data

How the results depend on the processing

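The 134 calls over all genes became 49 with a pseudocount of 64, 73 with the replicate block and 10 to 69 without 1 array, and were 192 without the dimmest genes and 182 with the trended prior. The call of Ak4 was lost with a pseudocount of 64 and from its other row (0 members called in each case), and 0 to 1 members were called without 1 array. The log2 difference of Ak4 stayed between -1.25 and -1.03 without 1 array, and was -0.91 with the mean of its rows and -0.66 from the other row. The 6 calls among HIF and glycolysis genes became 2 with a pseudocount of 1, 2 with a pseudocount of 64, 1 with the replicate block and 0 to 1 without 1 array. Same-numbered arrays share only a number. The other 2 lists had 0 calls under all 15 alternatives. Signs turned among genes near 0. Without 1 array, Ak1 ranged from -0.13 to 0.025, Ak3 from -0.14 to 0.17, Ak7 from -0.074 to 0.028, Ehmt1 from -0.093 to 0.0061, Cachd1 from -0.077 to 0.068 and Dnajc6 from -0.017 to 0.10. Cachd1 was at -0.041 with quantile normalization, -0.042 with median centring and -0.0095 with array weights, and Dnajc6 at -0.0052 with median centring. The cause was not tested. Low signal limits what Ak5, Ak7 and Ak8 can show.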
